A study of Mus musculus with 10 samples.

Results

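The genes described here are 47 genes of the NRF2, glutathione and antioxidant systems, listed by symbol and read from normalized counts of sorted mouse mammary cells. All 47 were found among the 26312 genes of the table, and 45 reached a mean of 10 counts across the libraries. The other two were the transferase Gsta3 and the peroxidase Gpx2, with means of 2.8 and 6.9, and they were not tested. The rule names the genes by symbol and keeps those with a mean of at least 10, without regard to group. The list and its roles were chosen with earlier results of these data known. They were sorted by role into NRF2 and its inhibitor, quinone, heme and epoxide enzymes, glutathione synthesis and recycling, the thioredoxin system, NADPH supply, glutathione transferases, peroxidases with catalase and superoxide dismutases, and ferritin with export pumps.

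RNA came from the 4th mammary glands of C57BL/6J mice aged 12 weeks, and 50000 cells per sample were sorted for high EpCAM, CD49f, Sca-1 and absence of CD49b. The mice were RSK2(+/+), called WT, or RSK2(-/-), called KO, and their glands were taken in estrus or diestrus. There were 3 WT estrus, 3 KO estrus, 2 WT diestrus and 2 KO diestrus libraries. RSK2 is a kinase activated by ERK1/2, and the series title asks what it does in estrogen homeostasis. KO titles contain both RSK2(-/-) and WT, and groups follow the genotype entry of each library. The labels give neither the kind of RSK2 allele nor whether a library is 1 mouse or a pool, so p-values measure the spread between libraries.

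NRF2 (encoded by Nfe2l2) is a transcription factor that KEAP1 holds at a low level by targeting it for degradation, and that accumulates when oxidants or electrophiles modify KEAP1. It binds antioxidant response elements and drives genes that make glutathione, conjugate it to reactive compounds, reduce thioredoxin and supply NADPH. In the mammary gland such enzymes are known for handling reactive estrogen metabolites, including quinones.

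Normalized counts summed to between 14108057 and 15307238 per library, with 20831 to 22122 genes above 0. A list of 8 hormone-sensing luminal markers summed to between 272313 and 380472 over all libraries, against 337 to 1227 for 8 basal markers and 1782 to 3293 for 7 luminal progenitor markers. The luminal keratin genes Krt8 and Krt18 carried most of the first sum, with group means of 132956 to 167075 and 97264.5 to 112293. That sum therefore does not weigh hormone-sensing cells against luminal progenitors. Group means were 1754 to 2445.5 for Esr1 and 885 to 1445.5 for Pgr, beside 738 to 1279 for the progenitor marker Cd14. Rps6ka3, which encodes RSK2, ran from 156 to 164 in KO estrus and from 128 to 137 in WT estrus (exact two-sided permutation p = 0.1, the smallest that 3 against 3 can give). In diestrus it ran from 156 to 165 in KO and from 139 to 165 in WT (exact permutation p = 1, with groups too small to reach 0.05). Rps6ka3 was thus not lower in the libraries labelled KO, and its total count does not check the genotype labels. Libraries labelled KO are called KO throughout. Of the sort proteins, Itga6 (CD49f) ran from 2773 to 3301 in KO estrus, 3789 to 4759 in WT estrus, 4223 to 4657 in KO diestrus and 4105 to 5124 in WT diestrus. Ly6a (Sca-1) ran, in the same order, from 21549 to 27186, 14488 to 28010, 10512 to 14585 and 17047 to 20692. Epcam ran from 35421 to 52849 over all libraries. Itga2, the gene of CD49b, ran from 57 to 174 in KO estrus and from 195 to 221 in WT estrus. In diestrus it ran from 236 to 339 in KO and from 196 to 251 in WT. Within KO, Itga2 was lower in estrus than in diestrus (limma log2 difference of -1.51 ± 0.36, adjusted p = 0.0189). None of these sort genes passed limma between KO and WT. Their part in the results below was not tested.

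The core letters of the antioxidant response element, TGACNNNGC, were searched on both strands in the 250 bases before each start in the RefSeq promoter table of GRCm38. That table holds 40 of the 47 genes, and 11 of them (27.5%) had a match, against 11.52% of 27025 genes in the whole table. By windows the shares were 21.43% of 56 and 10.16% of 32851. The matches shown lie in genes that passed a test below, with Prdx1 added as a gene that passed none. Each line reads 5′ to 3′ on the strand of the gene, and capitals mark the matched letters, which read GCNNNGTCA where the element lies on the other strand.
G6pdx: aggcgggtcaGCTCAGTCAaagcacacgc
Txnrd1: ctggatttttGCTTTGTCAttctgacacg
Gclm: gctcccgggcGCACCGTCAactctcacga
Mgst1: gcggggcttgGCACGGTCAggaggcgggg
Gstm5: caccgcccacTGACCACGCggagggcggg
Sod1: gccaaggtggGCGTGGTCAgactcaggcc
Prdx1: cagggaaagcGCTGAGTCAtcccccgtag
Positions given are those of whole lines, flanks included, and exon overlap was judged on the whole line. The G6pdx letters with their flanks lie at chrX:74428919-74428947 on the minus strand and overlap an annotated exon, the first matched base 57 bases before the start. Those of Txnrd1 lie at chr10:82859104-82859132, 92 bases before a start within an intron of the longer gene model. Those of Gclm (chr3:122245413-122245441), Sod1 (chr16:90220696-90220724) and Prdx1 (chr4:116685456-116685484) lie outside the annotated gene, 134, 56 and 133 bases before the start. The lines of Mgst1 (chr6:138140461-138140489) and Gstm5 (chr3:107895802-107895830) overlap an exon, and their matched letters begin 56 and 42 bases before the start. The annotated Gstm5 gene starts at 107895821, after the matched letters, so only the flank of that line overlaps it. The Prdx1 match also contains TGAGTCA, the letters of an AP-1 site, and such matches describe letters, not bound sites. Further matches were found in Nfe2l2, Gsta3, Gstm7 and Abcc4. Gstm1, Gstm2, Gstm4, Gstp1, Gstp2, Mgst2, Mgst3, Gpx1, Gpx4 and Fth1 also passed a test below and had no match. Gsr, Hmox1, Gstt2, Abcc1 and Prdx6 passed a test too but are not in the promoter table.

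Per kilobase of exon, the most abundant transcripts of the list were those of the ferritin light chain Ftl1 (mean of 9865 normalized counts per kilobase over the 10 libraries), the glutathione peroxidase Gpx1 (5500) and the ferritin heavy chain Fth1 (5490). Peroxiredoxin Prdx1 (4809), thioredoxin Txn1 (4066) and Prdx6 (3208) came next, followed by Gclc (3042) and the transferase Gstp1 (2915). At the low end, the cystine transporter gene Slc7a11 had 3.0 counts per kilobase, Mgst2 had 4.9 and the quinone reductase gene Nqo1 had 21.3. Of the windows of 50 bases in the exons of Ftl1, 90.6% occur in another gene as well (73.4% in Ftl1-ps1 alone), so its level is uncertain. The same share is 61.7% for Gpx4, 72.6% for Gstp2 and 62.3% for Gstp1.

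In estrus, 4 of 16 glutathione transferases were higher in KO than in WT, while the reductase and NADPH genes G6pdx, Txnrd1 and Gsr were lower. Of the 45 genes tested, 4 were higher and 3 lower in KO (limma, adjusted p under 0.05 over all 15180 genes). The background was 4.20% of all genes called, 1.26% higher and 2.94% lower. The transferases that rose were Gstt2, Gstm4, Mgst1 and Mgst3, and with the trend on transcript length and GC content removed G6pdx was the 1 gene of the list called. The median log2 difference of the 45 genes was 0.19, against -0.01 over all genes, and 31 were above 0. The KO and WT ranges did not overlap in 19 genes, 14 above and 5 below, where 26.0% of all genes tested did not overlap.

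In diestrus no gene of the list differed between KO and WT in limma at adjusted p under 0.05, and 5 had an unadjusted p under 0.05. That unadjusted threshold was passed by 899 of all 15180 genes. Over all genes 0.0395% were called, 0.0264% higher and 0.0132% lower. The median log2 difference was -0.12, and 29 of the 45 were below 0. Ranges did not overlap in 24 genes, 6 above and 18 below, against 43.1% of all genes with 2 libraries a group. Averaged over both stages, 1 gene, G6pdx, was lower in KO, where 0.665% of all genes were called. It kept this call in 12 of 21 alternatives and lost it when WT estrus 2, WT estrus 3 or any 1 diestrus library was left out, leaving 0 calls.

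The largest count of calls came from KO between the stages of the cycle, in the list as among all genes. Comparing KO estrus with KO diestrus, 16 of the 45 genes were higher in estrus and 3 lower, with 16.6% of all genes called, 7.67% higher and 8.95% lower. The median log2 difference was 0.45 (-0.01 over all genes). Ranges did not overlap in 32 genes, 26 of them higher in estrus, against 51.0% of all genes tested. In WT no gene of the list was called between estrus and diestrus by limma, as was the case for every gene (0% called), and 3 of the 45 had an unadjusted p under 0.05. That unadjusted threshold was passed by 588 of all 15180 genes. Ranges in WT did not overlap in 8 genes, against 17.7% of all genes.

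Whether the KO effect differed between the stages was tested as an interaction, and 0 of the 45 genes passed (limma), with 0% of all genes called. An unadjusted p under 0.05 in limma was reached by 15 of them, and by 2150 of all 15180 genes. The smallest adjusted p was 0.165, for Gstm1. The stage difference in KO was therefore not shown to differ from that in WT for any of these genes. These comparisons share libraries, so their values are given side by side and not set against each other.

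**Figure D1:**
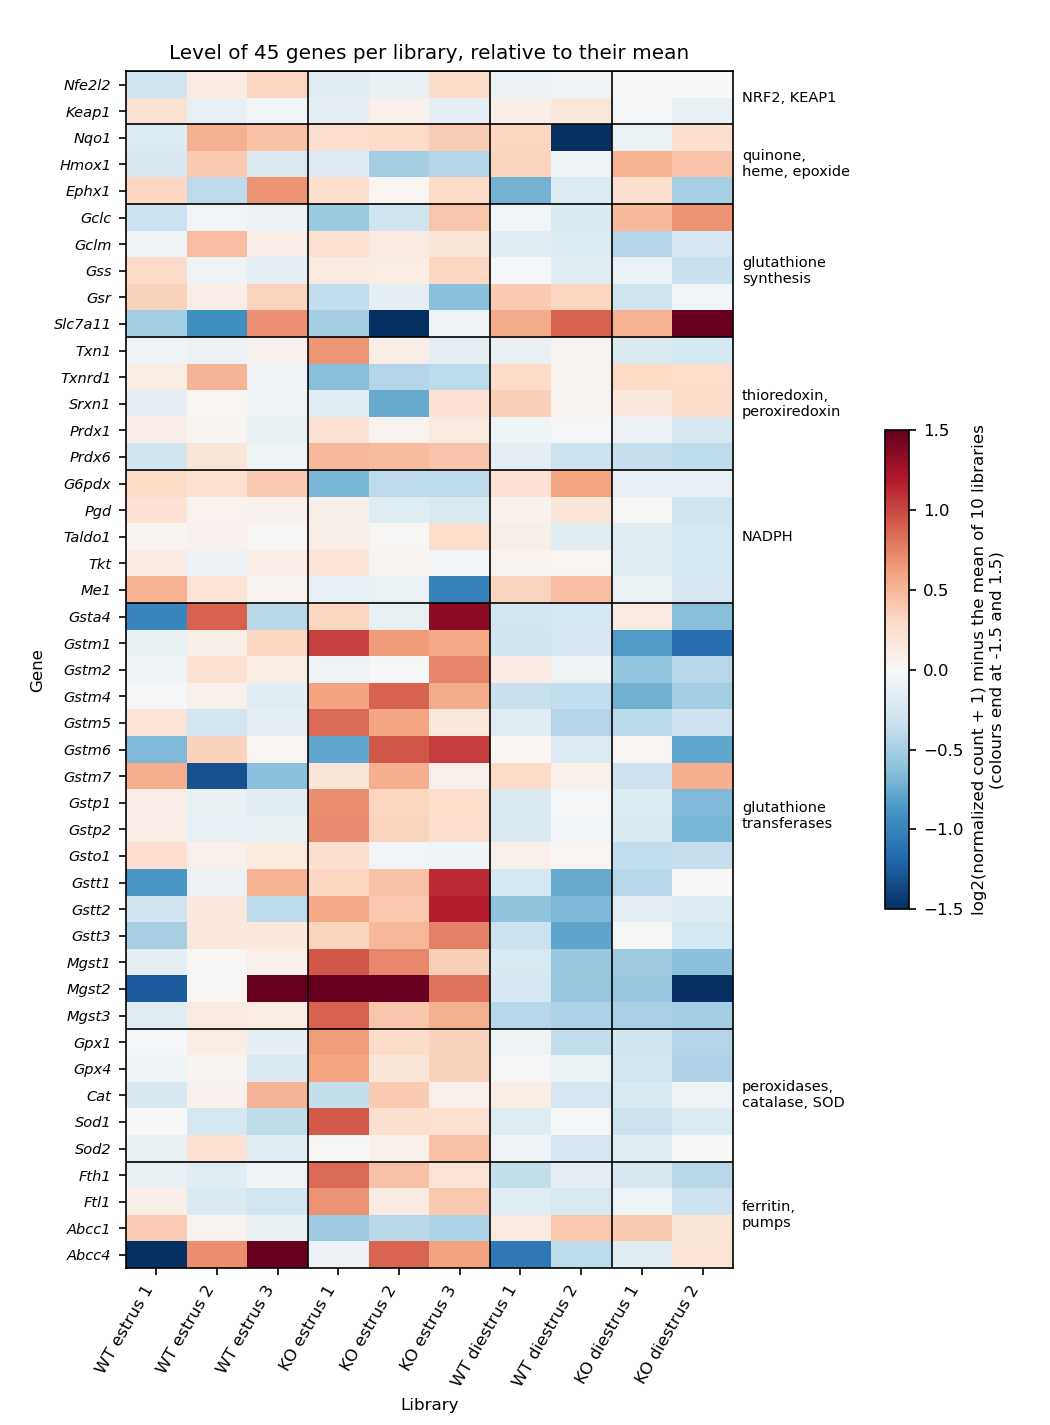
Each row is one of the 45 tested genes, grouped by role, and each column is a library; colour gives the log2 normalized count relative to the mean of the gene over the 10 libraries. The block of transferases is mostly above its mean in the 3 KO estrus libraries and below it in the 2 KO diestrus libraries, with medians of 0.47 to 0.59 and -0.51 to -0.39.

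The regulators themselves did not pass any test. Nfe2l2 had 1290, 1734 and 1982 normalized counts in WT estrus, 1412, 1474 and 1932 in KO estrus, 1493 and 1529 in WT diestrus, and 1602 and 1579 in KO diestrus. Keap1 had 879, 690 and 730 counts, 683, 796 and 687, 804 and 848, and 745 and 699 in the same order of groups. In estrus the KO and WT ranges of both genes overlapped. In diestrus the 2 KO libraries lay above WT for Nfe2l2 and below WT for Keap1. Ranges in diestrus did not overlap in 43.1% of all genes tested. The log2 difference between KO and WT ran from -0.19 to 0.07 over both genes and stages. Activity of NRF2 is set largely at the level of its protein, which was not measured.

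Hmox1, encoding the heme oxygenase that degrades heme, was lower in KO estrus than in KO diestrus. Counts were 1291, 1037 and 1093 in KO estrus and 2123 and 2000 in KO diestrus, against 1258, 1937 and 1276 in WT estrus and 1860 and 1410 in WT diestrus. The 3 KO estrus libraries lay below both KO diestrus libraries, whereas the WT stages overlapped. The log2 difference in KO was -0.86 ± 0.20 (SE, limma adjusted p = 0.0185). Nqo1 stayed between 6 and 44 counts in every library, and neither it nor Ephx1, encoding microsomal epoxide hydrolase, passed a test.

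In glutathione synthesis, the gene of the modifier subunit and that of glutathione reductase each passed one test. Gclm, which encodes the modifier subunit of glutamate-cysteine ligase, had 3042, 2842 and 2950 counts in KO estrus and 1912 and 2171 in KO diestrus. In WT it had 2502, 3583 and 2781 in estrus and 2303 and 2246 in diestrus, so that estrus lay above diestrus in both genotypes without overlap. The difference was 0.53 ± 0.16 on the log2 scale in KO (adjusted p = 0.0444, limma) and 0.36 ± 0.16 in WT (adjusted p = 1).

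Gclc, the catalytic subunit and the most abundant gene of this role, had 8809, 10746 and 10401 counts in WT estrus and 7507, 8965 and 14779 in KO estrus. In diestrus it had 10709 and 9492 in WT and 15549 and 17615 in KO. Both KO diestrus libraries were above all others, but the log2 differences of 0.71 ± 0.27 from WT diestrus (adjusted p = 0.718) and of -0.73 ± 0.25 for KO estrus against KO diestrus (adjusted p = 0.0633) did not pass the limma test. Slc7a11, which imports cystine for glutathione synthesis, was scarce, with 23, 17 and 54 counts in WT estrus, 23, 6 and 32 in KO estrus, 49 and 62 in WT diestrus, and 48 and 103 in KO diestrus. Its lowest values were in estrus, and its log2 difference between the stages in KO was -2.01 ± 0.65 (limma adjusted p = 0.0528).

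Gsr, on chromosome 8 (GRCm38, 33652523 to 33698163), encodes glutathione reductase, which uses NADPH to return oxidized glutathione to its reduced form. It had 6854, 5796 and 6805 counts in WT estrus and 4201, 4899 and 3506 in KO estrus. In diestrus it had 7073 and 6744 in WT and 4382 and 5260 in KO. Every KO library lay below every WT library of the same stage, and also below those of the other stage. The log2 difference was -0.64 ± 0.15 in estrus (limma adjusted p = 0.0446), a 1.55-fold lower level, and -0.52 ± 0.19 in diestrus (adjusted p = 0.68).

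Of the thioredoxin system, the reductase gene was lower in KO estrus and a peroxiredoxin gene was higher there than in KO diestrus. Txnrd1, on chromosome 10 (82833951 to 82897712), encodes the cytosolic thioredoxin reductase, also an NADPH-dependent enzyme. Its counts were 4268, 5611 and 3814 in WT estrus, 2528, 2900 and 2994 in KO estrus, 4795 and 4101 in WT diestrus, and 4839 and 4713 in KO diestrus. The 3 KO estrus libraries were the lowest of the 10. The log2 difference was -0.69 ± 0.16 from WT estrus (adjusted p = 0.0397) and -0.77 ± 0.18 from KO diestrus (adjusted p = 0.0164), both in limma. Between KO and WT in diestrus it was 0.11 ± 0.19.

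Prdx6, encoding a peroxiredoxin that reduces phospholipid hydroperoxides with the help of glutathione, had 20976, 20781 and 20200 counts in KO estrus and 11739 and 11533 in KO diestrus. WT had 12129, 16982 and 14285 in estrus and 13505 and 11994 in diestrus. The KO estrus libraries were the highest of the 10, 1.77-fold above KO diestrus (log2 difference of 0.83 ± 0.18, limma adjusted p = 0.0132). Against WT estrus the log2 difference was 0.53 ± 0.16 (adjusted p = 0.07). Txn1, Prdx1 and the sulfiredoxin gene Srxn1 passed no test, and for Txn1 KO estrus 1 stood apart with 6641 counts beside 3804 and 4517 in the other two.

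Of 5 genes of NADPH supply, G6pdx was lower in KO, with the smallest adjusted p of the list between the genotypes. G6pdx, on chromosome X (74409483 to 74429194), encodes glucose-6-phosphate dehydrogenase, the entry enzyme of the pentose phosphate pathway. Its counts were 5412, 5150 and 5775 in WT estrus and 2735, 3367 and 3368 in KO estrus. In diestrus they were 5115 and 6667 in WT and 4036 and 4054 in KO. Every WT library was above every KO library, and within KO both diestrus libraries were above the estrus ones. KO was 1.73-fold lower in estrus (log2 difference of -0.79 ± 0.14, adjusted p = 0.0233) and 1.58-fold lower over both stages (-0.66 ± 0.11, adjusted p = 0.0346), in limma. In diestrus alone the difference was -0.53 ± 0.18 (adjusted p = 0.595). Of its exon bases 13.6% are overlapped on the other strand by Ikbkg, 10.7% of its windows recur in other genes, and whether counting used strand is not given in the sources used here.

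Me1, the cytosolic malic enzyme and a second source of NADPH, had 1565, 1252 and 1129 counts in WT estrus, 996, 1018 and 542 in KO estrus, 1370 and 1502 in WT diestrus, and 1018 and 916 in KO diestrus. Again every KO library was below every WT library, but the log2 differences of -0.67 ± 0.22 in estrus and -0.57 ± 0.27 in diestrus did not pass (limma adjusted p = 0.0892 and 0.844). Of the windows of Me1 32.8% recur in other genes (24.3% in the pseudogene Gm7049 alone), so its level is uncertain. Pgd, encoding the next dehydrogenase of the pentose phosphate pathway, and Taldo1 and Tkt of its non-oxidative branch passed no test, with log2 differences between -0.22 and 0.08 in estrus. In diestrus all 5 genes of this role were below 0, from -0.57 to -0.18, and their KO and WT ranges did not overlap, as was so for 43.1% of all genes tested.

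**Figure D2:**
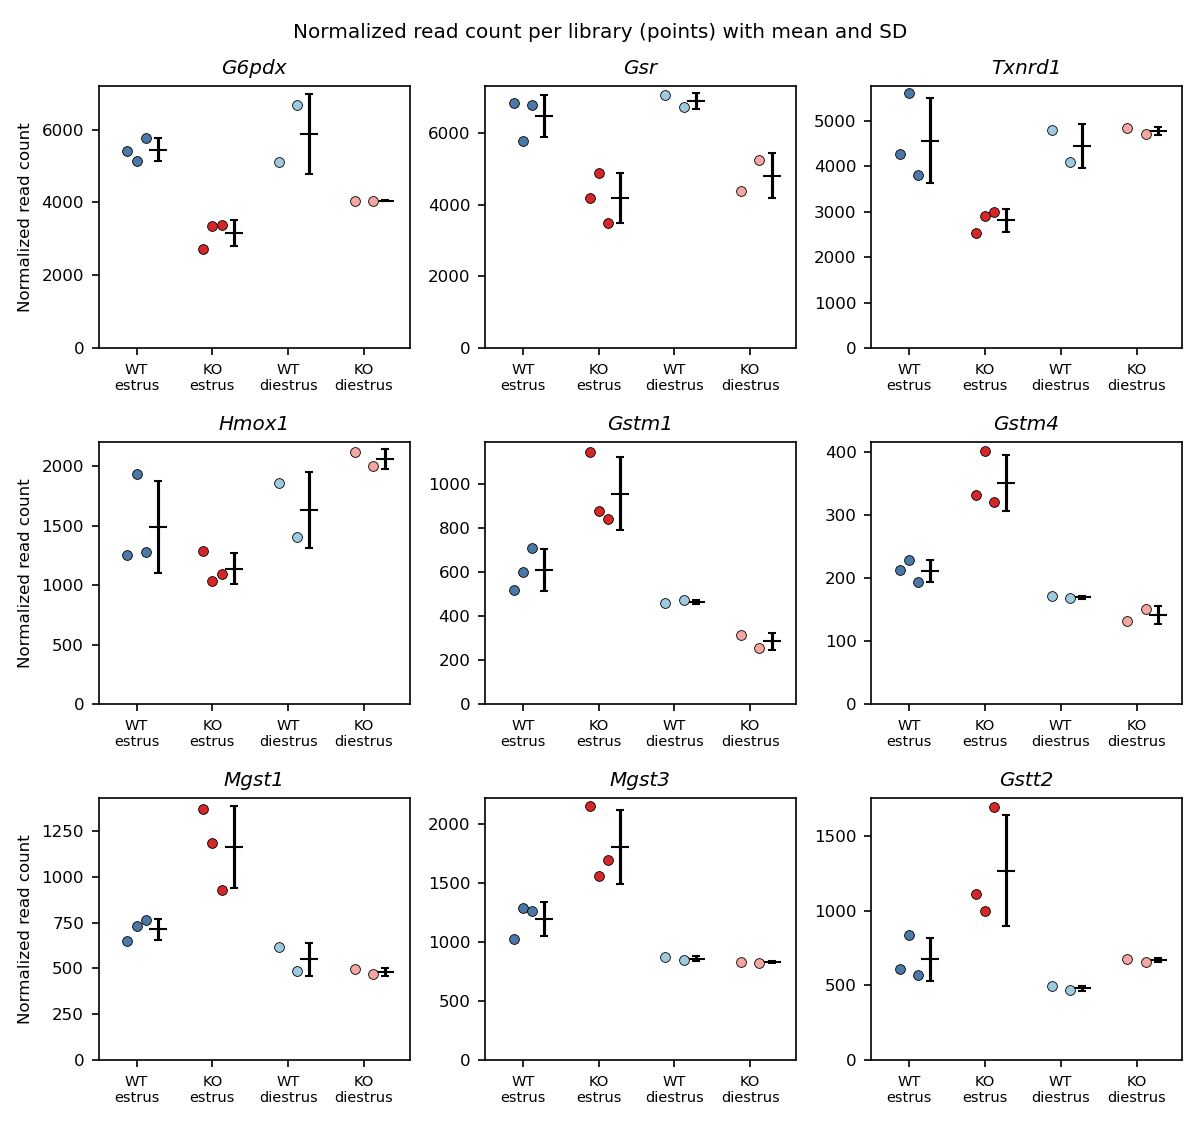
Points are the normalized counts of each library on a vertical axis of its own for each gene, by group, and bars give the mean and SD of the group. G6pdx and Gsr are lower in KO than in WT in both stages, Txnrd1 is low in KO estrus (2528 to 2994), and the group means of Gstm1, Gstm4 and Mgst1 are highest in KO estrus and lowest in KO diestrus.

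Glutathione transferases, which couple glutathione to electrophiles, were the largest role and held most of the calls. Of 16 tested, 4 were higher in KO than in WT in estrus, beside 1.26% of all genes called higher. In that contrast 15 had a log2 difference above 0, and the median was 0.63. In diestrus 0 were called by limma (2 at an unadjusted p under 0.05), 12 were below 0, and the median was -0.22. Between the stages 10 of 16 were higher in estrus in KO, beside 7.67% of all genes called higher. All 16 lay above 0 and the median was 0.87. In WT 14 of 16 lay above 0 with a median of 0.27, and 0 were called (2 at an unadjusted p under 0.05). The interaction was above 0 in all 16, with 0 called and 7 at an unadjusted p under 0.05. Over all genes the median log2 difference of these contrasts ran from -0.011 to -0.004. The 16 include Gstp1 and Gstp2, which are near copies of each other. Of all 15180 genes, 899 in diestrus, 588 between the WT stages and 2150 for the interaction had an unadjusted p under 0.05 in limma.

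The mu class genes lie in a cluster on chromosome 3. Gstm1 (108012255 to 108017973) had 520, 599 and 708 counts in WT estrus, 1146, 879 and 843 in KO estrus, 457 and 472 in WT diestrus, and 313 and 256 in KO diestrus. The 4 groups did not overlap: KO estrus was highest, then WT estrus, WT diestrus and KO diestrus. KO estrus exceeded KO diestrus 3.34-fold (log2 difference of 1.74 ± 0.19, adjusted p = 0.00247), while the differences between KO and WT, 0.65 ± 0.17 in estrus and -0.71 ± 0.20 in diestrus, did not pass (adjusted p = 0.0508 and 0.429), all in limma. Of its windows 23.1% recur in other genes.

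Gstm4 (chromosome 3, 108040408 to 108044894), none of whose windows recur elsewhere, showed the same order of groups. Its counts were 213, 228 and 193 in WT estrus, 331, 402 and 320 in KO estrus, 171 and 168 in WT diestrus, and 131 and 151 in KO diestrus. The KO estrus libraries were the highest and the KO diestrus libraries the lowest. It was higher in KO in estrus (0.73 ± 0.16, adjusted p = 0.0365) and 2.47-fold higher in estrus than in diestrus within KO (1.31 ± 0.18, adjusted p = 0.00357), both in limma.

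Gstm2 had 363, 439 and 406 counts in WT estrus, 363, 373 and 623 in KO estrus, 409 and 355 in WT diestrus, and 250 and 280 in KO diestrus. Gstm5 had 290, 208 and 230 in WT estrus, 458, 383 and 283 in KO estrus, 224 and 187 in WT diestrus, and 192 and 205 in KO diestrus. Both were higher in KO estrus than in KO diestrus, by 0.73 ± 0.23 and 0.89 ± 0.23 on the log2 scale (limma adjusted p = 0.0474 and 0.0232), and KO estrus overlapped WT estrus in both. Gstm6 and Gstm7 had means below 50 counts in each group and passed no test.

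The membrane-bound transferases form a separate family, and 3 of its genes were measured. Mgst1 (chromosome 6, 138140316 to 138156755) had 651, 729 and 763 counts in WT estrus, 1370, 1185 and 926 in KO estrus, 614 and 485 in WT diestrus, and 498 and 467 in KO diestrus. Mgst3 (chromosome 1, 167371966 to 167393841) had 1027, 1288 and 1258 counts in WT estrus, 2151, 1559 and 1696 in KO estrus, 872 and 843 in WT diestrus, and 832 and 823 in KO diestrus. In both genes the KO estrus libraries were the highest, and estrus lay above diestrus in WT too. Against WT estrus the log2 differences were 0.68 ± 0.16 for Mgst1 and 0.59 ± 0.15 for Mgst3 (limma adjusted p = 0.0428 and 0.0478). Within KO the stages differed by 1.25 ± 0.18 and 1.11 ± 0.17 (adjusted p = 0.0047 for each). The log2 difference between the stages in WT was 0.38 ± 0.18 and 0.47 ± 0.17 (adjusted p = 1 for each).

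Mgst2 was near the detection limit, with 4, 11 and 39 counts in WT estrus, 35, 48 and 20 in KO estrus, 9 and 7 in WT diestrus, and 7 and 0 in KO diestrus. It was called higher in KO estrus than in KO diestrus (limma log2 difference of 3.56 ± 0.93, adjusted p = 0.0256), and with counts this low the size depends on the pseudocount of 1 and on single libraries.

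Gstt2 (chromosome 10, 75831114 to 75837424), of the theta class, was higher in KO estrus than in every other library. Its counts were 612, 839 and 572 in WT estrus, 1115, 998 and 1696 in KO estrus, 494 and 471 in WT diestrus, and 679 and 660 in KO diestrus. KO exceeded WT in both stages without overlap. The log2 difference was 0.89 ± 0.20 in estrus (adjusted p = 0.0383) and 0.47 ± 0.25 in diestrus (adjusted p = 0.881), and 0.88 ± 0.23 between the stages within KO (adjusted p = 0.0234), in limma. Gstt3 had the same order of group means, with 1206, 1898 and 1895 counts in WT estrus, 2136, 2401 and 2870 in KO estrus, 1361 and 983 in WT diestrus, and 1660 and 1421 in KO diestrus, and passed no test.

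Gstp1 and Gstp2, of the pi class, are near copies of each other. Gstp1, the transferase of highest mean count, had 4680, 4063 and 3880 counts in WT estrus, 7113, 5494 and 5268 in KO estrus, 3770 and 4301 in WT diestrus, and 3794 and 2765 in KO diestrus. Gstp2 had 2036, 1735 and 1756, then 3085, 2390 and 2261, 1623 and 1833, and 1626 and 1180. KO estrus was highest for both, and the ratio of Gstp1 to Gstp2 stayed between 2.21 and 2.35 in all libraries, so they do not stand as independent measurements. Within KO, estrus exceeded diestrus by 0.87 ± 0.19 and 0.88 ± 0.18 on the log2 scale (limma adjusted p = 0.0133 and 0.0117). The differences from WT estrus, 0.49 ± 0.17 and 0.48 ± 0.16, did not pass (adjusted p = 0.0936 and 0.0979). Gsto1, of the omega class, was the one transferase below 0 in KO against WT estrus (log2 difference of -0.11 ± 0.13).

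Peroxidases and superoxide dismutases showed no genotype call and 3 stage calls in KO. Gpx1, the cytosolic glutathione peroxidase and the highest of the listed ones, had 7539, 8318 and 7008 counts in WT estrus, 11959, 9357 and 9849 in KO estrus, 7308 and 5989 in WT diestrus, and 6255 and 5673 in KO diestrus. Gpx4, which reduces lipid hydroperoxides in membranes, had 3583, 3874 and 3214 in WT estrus, 5663, 4261 and 4776 in KO estrus, 3713 and 3508 in WT diestrus, and 3098 and 2726 in KO diestrus. Sod1, the cytosolic superoxide dismutase, had 438, 368 and 337 in WT estrus, 836, 521 and 514 in KO estrus, 387 and 430 in WT diestrus, and 351 and 383 in KO diestrus. KO estrus lay above every other library in all 3 genes. Estrus exceeded diestrus in KO by 0.79 ± 0.17, 0.74 ± 0.16 and 0.73 ± 0.22 on the log2 scale for Gpx1, Gpx4 and Sod1 (limma adjusted p = 0.0127, 0.013 and 0.0413). Against WT estrus the differences were 0.44, 0.46 and 0.68 (adjusted p = 0.0964, 0.0762 and 0.0615). Catalase (Cat) and the mitochondrial dismutase gene Sod2 passed no test.

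Ferritin heavy chain Fth1, which stores iron in oxidized form, had 17063, 16508 and 17728 counts in WT estrus and 32987, 24847 and 20991 in KO estrus. In diestrus it had 14395 and 16548 in WT and 15621 and 13777 in KO. The 3 KO estrus libraries were the highest, and they differed among themselves more than the WT ones. The stage difference in KO was 0.82 ± 0.21 (log2, limma adjusted p = 0.0225), and that from WT estrus was 0.59 ± 0.18 (adjusted p = 0.0742).

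Abcc1, a pump that exports glutathione conjugates, moved the other way. It had 411, 326 and 292 counts in WT estrus, 216, 235 and 226 in KO estrus, 346 and 418 in WT diestrus, and 413 and 357 in KO diestrus. The KO estrus libraries were the lowest of the 10. The log2 difference was -0.77 ± 0.18 from KO diestrus (limma adjusted p = 0.0194) and -0.59 ± 0.17 from WT estrus (adjusted p = 0.0608).

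**Figure D3:**
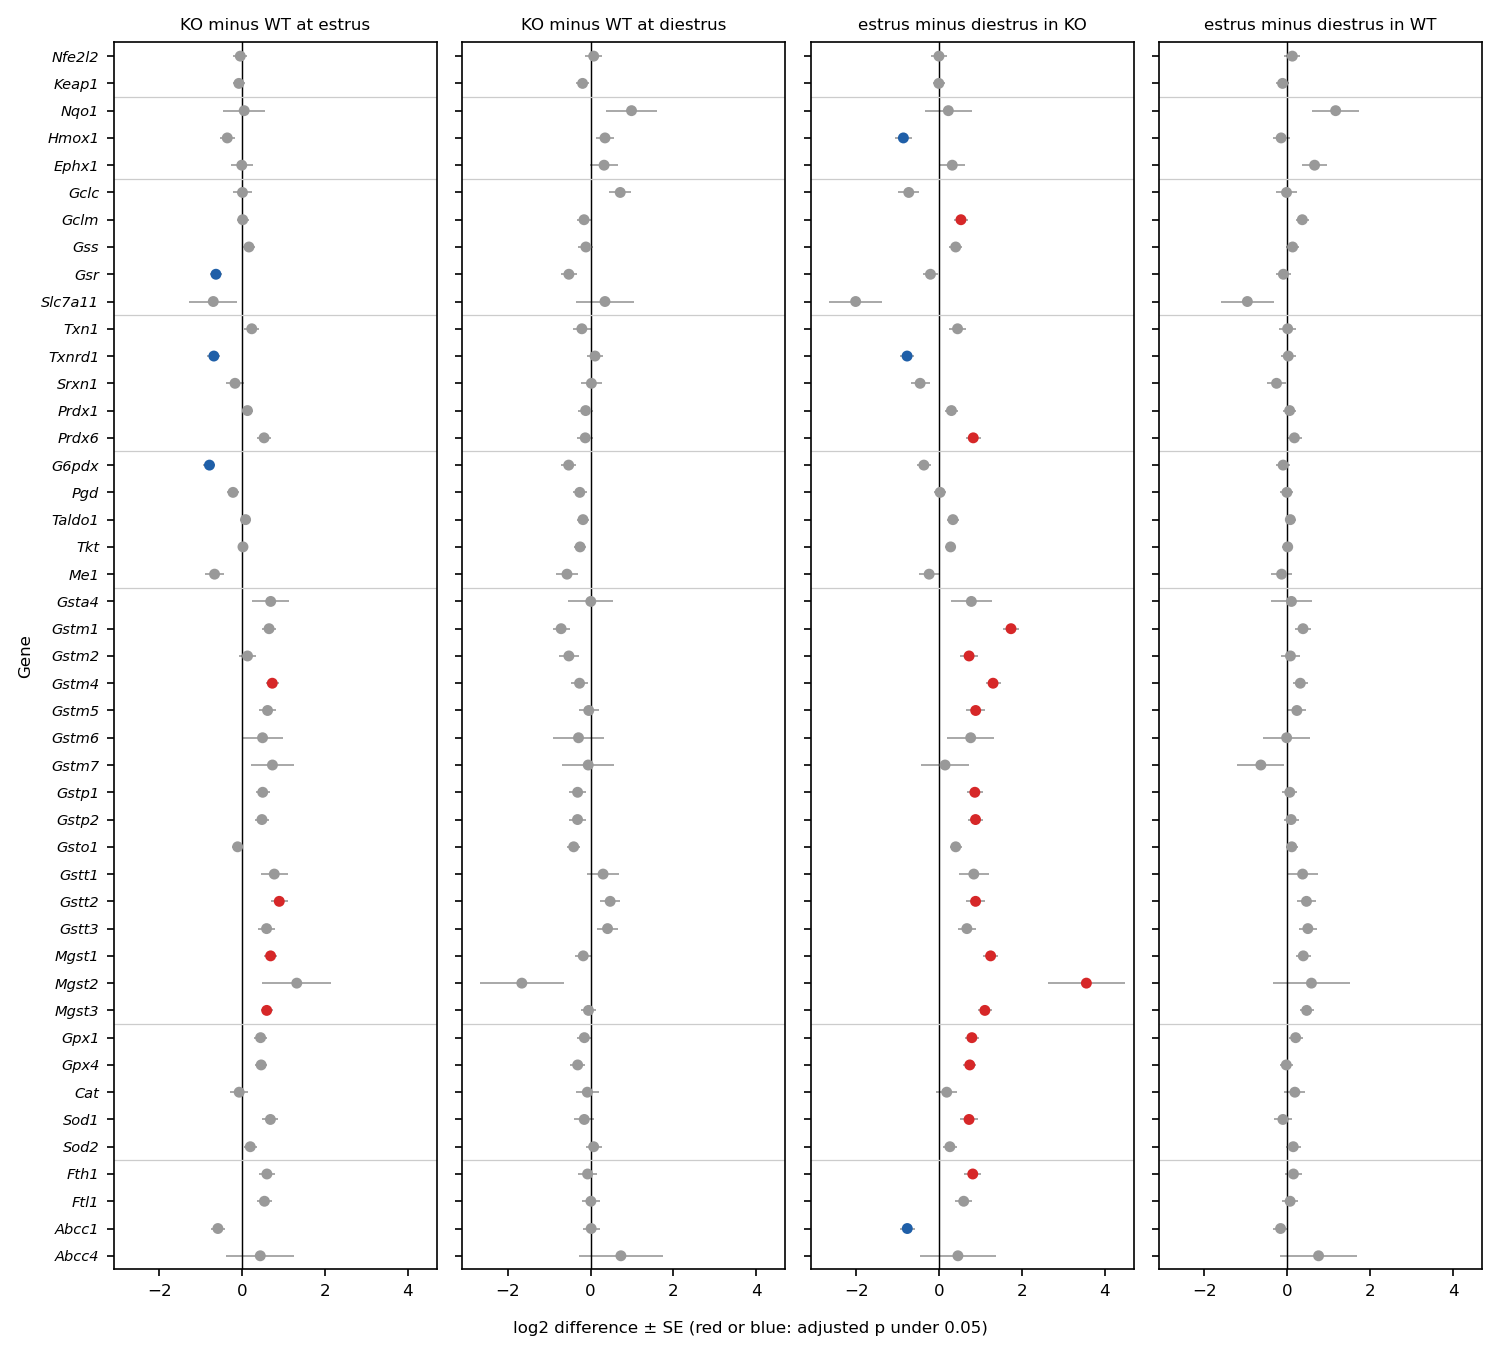
Points give the limma log2 difference of each tested gene by role, with bars of 1 standard error, for KO against WT in each stage and for estrus against diestrus within each genotype; red and blue points passed the test, higher and lower, and grey ones did not. The transferases lie mostly right of 0 in KO against WT estrus and in KO estrus against KO diestrus, with medians of 0.63 and 0.87, and G6pdx, Gsr and Txnrd1 lie left of 0 in estrus.

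The count of 7 genotype calls in estrus was not stable. It was 0 without the filter on low values, without the trend in the spread, with the compared groups alone, and when WT estrus 2, WT estrus 3, KO estrus 1 or either KO diestrus library was left out. Omitting either WT diestrus library left 1 call, omitting WT estrus 1 left 3, and omitting KO estrus 2 left 4, while omission of KO estrus 3 gave 9. Scaling to equal totals gave 5 higher and 2 lower, and quantile normalization 6 and 2, beside 4 and 3 as fitted. G6pdx was kept in 14 of 22 alternatives, and the other 6 genes in 6 to 10.

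The stage calls in KO rest on 2 diestrus libraries. Without KO diestrus 1 the count fell from 19 to 6 (Gstm1, Gstm4, Gstp2, Mgst1, Mgst2 and Mgst3), and without KO diestrus 2 to 2 (Gstm1 and Gstm4), where the lone library is assumed to vary like the other groups. Gstm1 and Gstm4 were called in all 22 alternatives, with log2 differences of 1.43 to 1.88 and 1.06 to 1.41.

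Transcript length moved with the same contrast. The log2 level of all genes changed by -0.116, -0.0316 and -0.0765 per doubling of transcript length in KO estrus 1, 2 and 3, and by 0.0577 and 0.0558 in KO diestrus. In the WT libraries the change per doubling ran from -0.025 to 0.0391. The 16 genes higher in KO estrus had a median transcript of 1228 bases and the 3 lower ones of 3622 bases, against 2062 for the 45 genes and 2927 for all genes with a length. With the trend on length and GC content removed from each library, 12 genes were called between the stages in KO, 11 of them among the original 19. The transferase median went from 0.87 to 0.53 with 6 called, and the peroxidase median from 0.73 to 0.41 with 2 called. In KO against WT estrus the transferase median went from 0.63 to 0.45, and G6pdx was the 1 call.

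**Figure D4:**
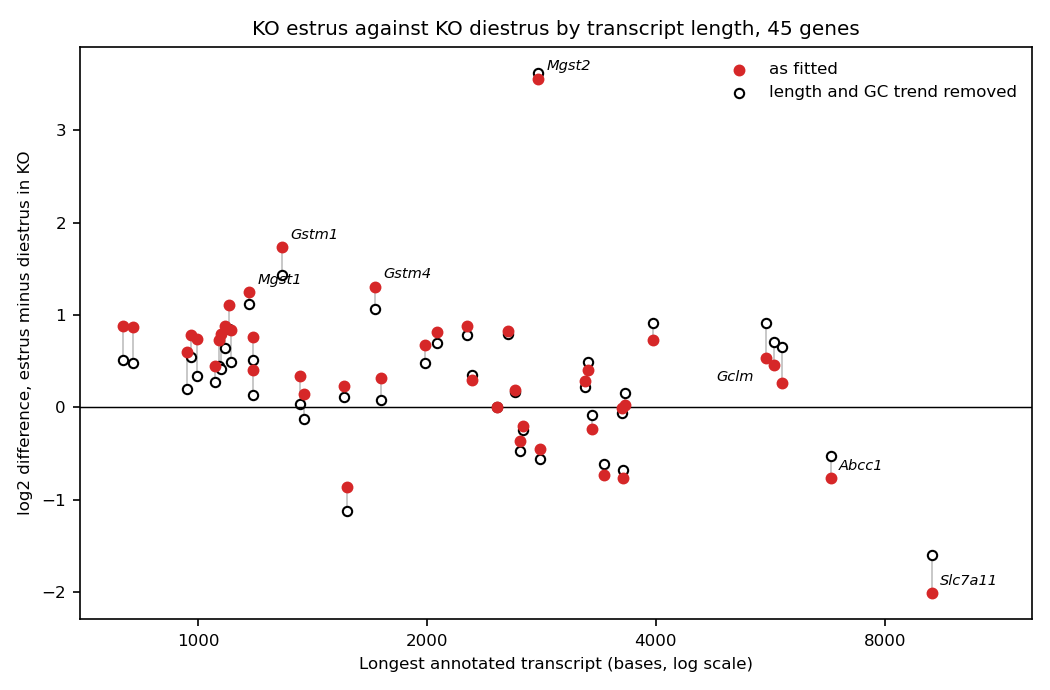
Each gene's log2 difference between KO estrus and KO diestrus is plotted against its longest annotated transcript (bases, log axis), as fitted (filled) and with the trend on length and GC content removed (open). The points of short transcripts move down on removal, while Gstm1, Gstm4 and Mgst1 stay above 1.

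Markers of other cells were read beside these results. The 9 macrophage markers summed to 584 to 828 counts in KO estrus, 330 to 616 in WT estrus, 569 to 639 in WT diestrus and 433 to 436 in KO diestrus. Of the 5 tested, Cd74 and C1qb were higher in KO estrus than in KO diestrus (limma log2 differences of 2.35 ± 0.66 and 4.04 ± 0.86, adjusted p = 0.0342 and 0.0129), and the defining markers Adgre1 and Mrc1 stayed at or below 6 counts. Lyz2, Csf1r and Cd68 were not called, and Csf1r ran from 187 to 205 in KO estrus, below its 234 to 236 in KO diestrus. Of the lymphocyte list 2 of 5 markers were in the table, and their sum was 138 to 186 in KO estrus against 57 to 130 in the other groups, with Trbc2 higher in KO than WT in estrus (1.13 ± 0.22, adjusted p = 0.0276). The 6 fibroblast markers summed to 107 to 3101 within KO estrus, 94 to 117 in KO diestrus and 580 to 1610 in WT. Dcn carried these sums (88 to 3065, 64 to 99 and 561 to 1591 counts), and the other 5, Col1a1, Col1a2, Col3a1, Pdgfra and Lum, stayed at or below 21 counts in every library. Of the luminal lists, the hormone-sensing marker Prom1 and the progenitor marker Itga2 were lower in KO estrus than in KO diestrus (limma adjusted p = 0.0357 and 0.0189). The progenitor marker Cd14 was higher (limma adjusted p = 0.0441). Of the 6 progenitor markers tested, 5 lay below 0 in this contrast, with a median log2 difference of -0.61. An unadjusted p under 0.05 in limma was reached by 4 of the 6, Cd14 included, and by 5134 of all 15180 genes. The 8 hormone-sensing markers were split, 4 above and 4 below 0. The part of these cells in the antioxidant results was not tested. In a bulk sample, fewer cells of a type and less RNA per cell cannot be told apart.

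Beside the list, 93 further genes of the same pathways were examined, of which 81 were tested. In KO against WT estrus 1 was higher, Prdx4, a peroxiredoxin of the endoplasmic reticulum (0.71 ± 0.15, adjusted p = 0.035), and 2 were lower, among them H6pd, which makes NADPH in the endoplasmic reticulum (-0.69 ± 0.17, adjusted p = 0.0439), by limma. These 3 calls stand beside 4.20% of all genes called. In diestrus 0 were called by limma, and 11 had an unadjusted p under 0.05. Between the stages in KO 15 were higher in estrus and 5 lower, beside 16.6% of all genes called, and in WT 0 were called (2 at an unadjusted p under 0.05). The interaction gave 0 calls and 19 at an unadjusted p under 0.05. Of all 15180 genes, 899 in diestrus, 588 between the WT stages and 2150 for the interaction had an unadjusted p under 0.05 in limma.

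Among other transferases, Gstk1 and Gsto2 were higher in KO estrus than in KO diestrus, by 1.02 ± 0.23 and 1.55 ± 0.32 on the log2 scale (limma adjusted p = 0.0145 and 0.0123). Of 19 further thioredoxin, peroxiredoxin and glutaredoxin genes, 3 rose (Prdx2, Prdx4 and Msrb1) and Sesn2, a stress-induced gene, fell by 1.25 ± 0.19 (adjusted p = 0.00482). Of 13 further NADPH genes, Idh1, Idh2 and Pgls rose, and Mthfd2, a mitochondrial folate enzyme, fell by 2.24 ± 0.31 (adjusted p = 0.00357). Mthfd2 had 208, 204 and 250 counts in KO estrus and 891 and 1216 in KO diestrus, beside 480, 209 and 403 in WT estrus and 398 and 550 in WT diestrus. The KO diestrus libraries were thus the highest of the 10. Of 9 regulators and partners of NRF2, Nfe2l1, a related transcription factor gene, was lower in KO estrus than in KO diestrus (-0.61 ± 0.18, adjusted p = 0.0363), and the small Maf genes, Bach1 and Cul3 passed no test.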

How the data were processed

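The authors deposited 1 score per gene and library, a normalized count rounded to whole numbers and not divided by gene length. Per the submitters' processing notes, mm10, STAR, HTSeq and DESeq2 were used, while versions, settings and strandedness are not given in the sources used here. Groups come from the genotype labels and the stage in the titles. Genes with a mean of at least 10 (15180) were tested on log2(value + 1) with limma 3.58.1 in R 4.3.3: 1 mean per group over the 10 libraries, a spread that varies with the level, 6 two-sided contrasts, and Benjamini-Hochberg adjustment over all genes tested at 0.05. A fold change on this scale understates that of low genes. Because the values are not raw counts, no count model was run, and depth in reads was not used. Groups of 2 libraries borrow their spread from the others.

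Every listed gene may be named. Genes called in any contrast, the one of highest mean and the one of largest estrus difference per role are given in every library. Outside the list, up to 4 called genes per pathway list and contrast, Nnt, Rps6ka3, the sort proteins and cell markers are named. The list, roles and pathway lists were chosen with earlier results of these data known. Positions and lengths are from GENCODE M21 (GRCm38), and promoters from RefSeq (GRCm38). The values of 1 gene of the pathway lists are not reported here. The fit was tested on simulated data. Alternatives were 12 settings and each of 10 libraries left out. Figures used Python 3.11.15 and matplotlib 3.10.9.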

Additional observations from a re-analysis of the deposited data

How the results depend on the processing

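Over 27 calls of single genes and their 592 alternative fits, 419 kept the call, 173 lost it and 0 changed direction. The 7 calls of KO against WT in estrus became 0 with no filter on low values, 0 with no trend in the spread, 0 with the compared groups alone, 2 with library weights and 1 with the length and GC trend removed, and leaving out 1 library gave 0 to 9. The 0 calls in diestrus became 1 with library weights. The 1 call averaged over both stages became 0 with no filter, 0 with equal totals, 0 with no trend in the spread and 3 with library weights, and leaving out 1 library gave 0 to 1. The 19 stage calls in KO became 12 with the length and GC trend removed, and leaving out 1 library gave 2 to 21. The stage in WT and the interaction gave 0 calls in each alternative run. The fit on the compared groups alone applies to neither the average nor the interaction. Where KO diestrus or WT diestrus was reduced to 1 library, its spread was taken from the other groups. The cause of these changes was not tested.

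The main fit did not use replicate numbers as pairs. The deviations of 13 pairs with the same number correlated between -0.132 and 0.187, 1 of them over 0.1. Those of 24 pairs with different numbers correlated between -0.147 and 0.132, 3 of them over 0.1. In groups of 2 libraries the deviations mirror each other, so these values cannot settle whether the numbers pair libraries. With the replicate block the counts were 7 in estrus, 0 in diestrus, 1 averaged, 0 between the stages in WT, 20 in KO and 0 for the interaction. The 7 in estrus included Me1 in place of Mgst3.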

Other observations

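The gene of the mitochondrial NADPH-making transhydrogenase, Nnt, which is known for a deletion in the C57BL/6J substrain, had 250, 192 and 287 normalized counts in WT estrus, 238, 303 and 154 in KO estrus, 530 and 617 in WT diestrus, and 168 and 116 in KO diestrus. The 2 WT diestrus libraries stood above all others. Averaged over the stages it was lower in KO (limma log2 difference of -1.06 ± 0.20, adjusted p = 0.0457), with -2.03 ± 0.31 in diestrus (adjusted p = 0.0572) and -0.10 ± 0.25 in estrus (adjusted p = 0.833). The strain label is the same for all libraries, and the genotype of Nnt was not measured.

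Several further genes of these pathways differed within the KO estrus group. The aldehyde dehydrogenase gene Aldh3a1 had 80, 96 and 36 counts there, against 38, 36 and 49 in WT estrus, 26 and 28 in WT diestrus, and 4 and 6 in KO diestrus. The cytosolic NADPH-making isocitrate dehydrogenase gene Idh1 had 578, 683 and 284 in KO estrus and 148 and 113 in KO diestrus. In WT it had 192, 200 and 374 in estrus and 238 and 163 in diestrus. Ggt1, which starts the breakdown of extracellular glutathione, had 2185, 2158 and 954 in KO estrus and 660 and 487 in KO diestrus. In WT it had 2874, 2240 and 1283 in estrus and 2066 and 2297 in diestrus, so the KO diestrus libraries were the lowest of all. In each of the 3 genes KO estrus 3 was the lowest of its group and still above both KO diestrus libraries. All 3 were higher in KO estrus than in KO diestrus, by 3.49 ± 0.42, 1.89 ± 0.38 and 1.54 ± 0.37 on the log2 scale (limma adjusted p = 0.00267, 0.00998 and 0.0193). For Aldh3a1 the size rests on KO diestrus counts of 4 and 6.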
